A study of Mus musculus with 3 samples.

Results

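Regulators of the epithelial to mesenchymal transition were examined in cap mesenchyme, the nephron progenitors that lie around each branching tip of the ureteric bud. The 9 genes were the zinc finger repressors Snai1, Snai2 and Snai3, the repressors Zeb1 and Zeb2, the basic helix-loop-helix factors Twist1 and Twist2, the intermediate filament gene Vim and the epithelial transcription factor Grhl2. They were chosen by name, as regulators of the mesenchymal state and their epithelial counterpart before the nephron forms, and make up 9 of the 18193 genes named by a single-gene probe set. Their 23 probe sets, all with a single gene symbol, were found among 45037 on the array after controls were left out. A probe set is a group of short oligonucleotides that reads a single stretch of a transcript.

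The data came from 3 mouse arrays that form a single group. Each array held RNA of cells sorted by fluorescence from a pool of about 5 to 10 trypsin-dissociated kidneys of CD-1 embryos at E15.5 (Theiler stage 23), after 2 rounds of RNA amplification. All embryos belonged to the line Tg(Six2-EGFP/cre)1Amc, in which Six2 regulatory sequence drives a fusion of EGFP and cre. The sex of the embryos was labelled unknown, and no other cell population, transgene-free kidney or other stage was analysed here. The labels do not say whether the pools came from separate litters, so p-values rest on these 3 pools and may not cover the spread between litters. Their variance draws on all probe sets as well as on the 3 readings of each. Because each sample was a bulk of sorted cells, a lower number of cells of a type and less RNA per cell cannot be told apart.

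Snail, ZEB and Twist proteins bind E-boxes, short DNA motifs, and repress genes of epithelial adhesion such as Cdh1, which encodes E-cadherin. Grhl2 acts the other way: it activates epithelial junction genes and is mutually repressive with Zeb1. Nephron progenitors convert from mesenchyme to epithelium when they are induced, so the cap mesenchyme is a tissue that stands before a mesenchymal to epithelial transition. Vim encodes vimentin, the intermediate filament protein of mesenchymal cells.

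Upstream sequences were searched for a motif that Snail and ZEB proteins bind, and those of 3 genes are shown. The motif searched was CAGGTG, which reads CACCTG on the other strand, in the 250 bases before the start of each RefSeq gene (build GRCm38.p6). Capitals mark every match. Vim is shown as the mesenchymal effector among the 9 genes, Snai1 as a repressor gene that holds the motif, and Epcam as an epithelial target gene that was above background.

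Vim, chr2:13574061-13574310, plus strand: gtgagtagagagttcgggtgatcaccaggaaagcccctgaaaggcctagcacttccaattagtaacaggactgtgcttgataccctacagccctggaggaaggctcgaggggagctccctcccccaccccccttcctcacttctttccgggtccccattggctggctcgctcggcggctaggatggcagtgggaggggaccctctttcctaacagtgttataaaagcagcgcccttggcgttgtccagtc
Snai1, chr2:167537945-167538194, plus strand: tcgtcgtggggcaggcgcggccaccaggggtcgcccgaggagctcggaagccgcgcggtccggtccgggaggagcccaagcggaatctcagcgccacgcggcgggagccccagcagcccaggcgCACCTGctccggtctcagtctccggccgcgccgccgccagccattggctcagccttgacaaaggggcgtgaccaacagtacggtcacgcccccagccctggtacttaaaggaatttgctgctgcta
Epcam, chr17:87635729-87635978, plus strand: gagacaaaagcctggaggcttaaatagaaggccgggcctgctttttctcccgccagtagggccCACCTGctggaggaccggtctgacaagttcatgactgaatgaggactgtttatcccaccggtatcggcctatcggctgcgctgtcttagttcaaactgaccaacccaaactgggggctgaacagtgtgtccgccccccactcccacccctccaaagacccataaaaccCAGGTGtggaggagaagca

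The Vim window held no match, which says only that these letters are not in this window. The Snai1 window held 1 match, which began 126 bases before the start. The Epcam window held 2 matches, at 187 and 19 bases before the start. Of the 9 genes, 5 had a sequence to read (Snai1, Zeb2, Twist1, Twist2 and Vim), and Snai1 was the gene of these 5 with a match in any of 8 windows. Over all 32851 windows of 27025 genes, 17.2% held the motif. Among 24 windows of 19 genes from a list of epithelial adhesion and junction genes, 13 windows (54.2%) of 11 genes held it. Of those 11 epithelial genes 5 exceeded background, and of the 8 without a match 3 did, beside 54.4% of all named genes. These matches are descriptions of sequence, and base composition was not taken into account.

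Each signal was set against the background of its own array. Background was taken from 150 probe sets of olfactory, vomeronasal and taste receptor, hair keratin-associated and defensin genes, and its level was their 95th percentile, with signals of 197, 186 and 201 in pools 1, 2 and 3. Differences are given as log2(signal + 16) minus that level, averaged over the 3 pools. The standard error (SE) is the moderated one of limma, which also draws on the spread of the other probe sets. The level enters as a fixed value, without its own error. An adjusted p under 0.05 in limma (one-sided, Benjamini-Hochberg over all 45037 probe sets) is called above background. A gene was called if any of its probe sets was. Probe sets differ in how well they bind, so signals are not ranked between probe sets or genes, and a transcript can be present under a reading below background.

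Of the 9 regulators, 4 were above background: Zeb1, Vim, Snai2 and Zeb2. This compares with 54.4% of all 18193 named genes. Of the 23 probe sets 10 were called, beside 41.5% of all probe sets, and the same 10 had an unadjusted p under 0.05. The share of the 9 genes thus lay near that of all genes, and no result is read from their number. The median difference from background of the 9 genes was 0.03 on the log2 scale, beside 1.20 for all named genes. Snai1, Twist1, Twist2 and Grhl2 were below the background level in every pool and on every probe set. Counted by the probe set with the highest mean, 5, 5 and 4 of the 9 genes exceeded the level in pools 1, 2 and 3, Snai3 being the gene that did so in pools 1 and 2 alone.

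**Figure D1:**
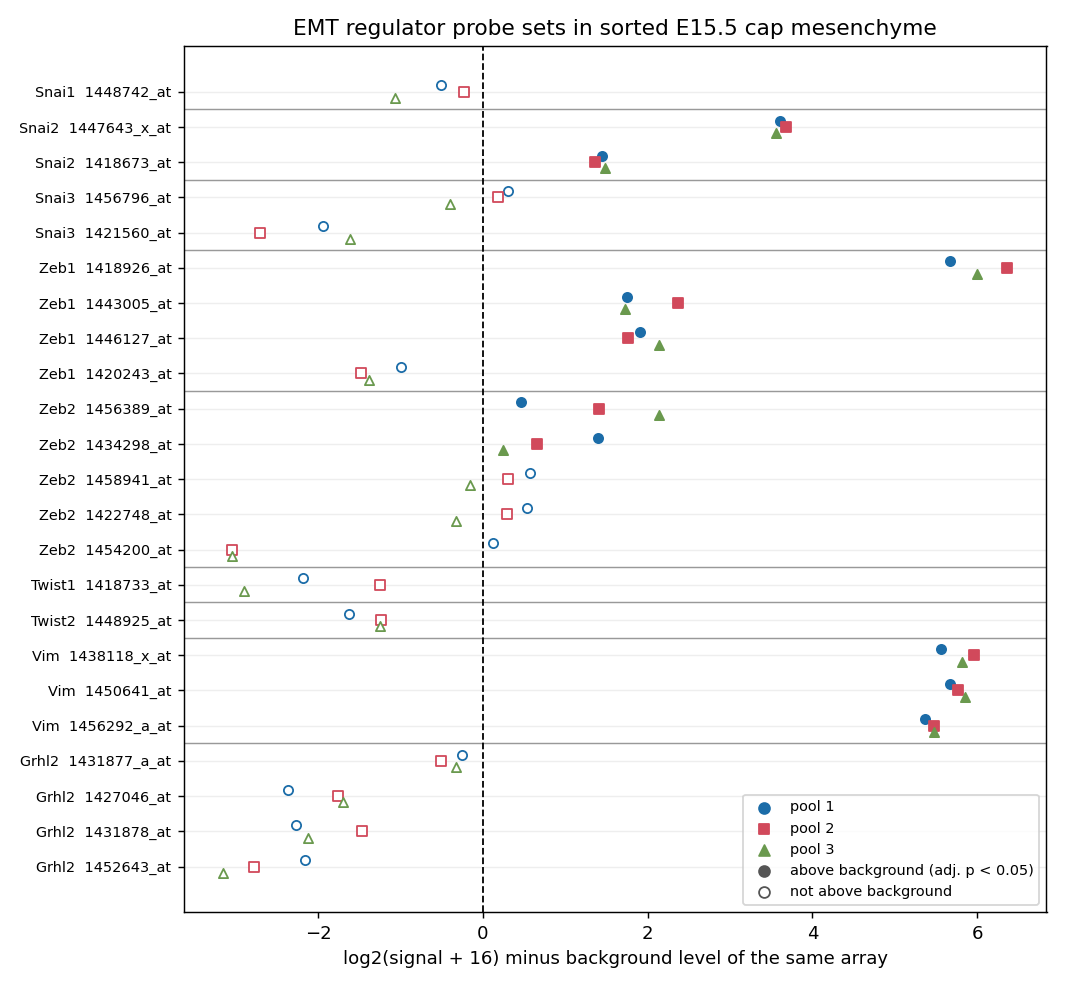
Each row is a probe set of an EMT regulator, and the x axis gives log2(signal + 16) minus the background level of the same array (dashed line at 0). Circles, squares and triangles are pools 1, 2 and 3, and filled symbols mark the 10 probe sets above background; all Vim symbols lie beyond 5 and all Twist1, Twist2 and Grhl2 symbols lie below 0.

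Zeb1, which encodes a repressor with zinc fingers and a homeodomain, was above background on 3 of its 4 probe sets. Probe set 1418926_at read 10803, 16601 and 13829 in pools 1, 2 and 3. All 3 pools were far above the background levels, and pool 2 was the highest. The mean was 13744 ± 2900 (SD, n = 3), and the difference from background was 6.01 ± 0.16 (log2, SE; adjusted p = 2.22e-08, limma). Probe set 1443005_at read 697, 1025 and 699 (1.94 ± 0.19, adjusted p = 3.74e-05, limma), again with pool 2 the highest. Probe set 1446127_at read 782, 668 and 942 (1.94 ± 0.17, adjusted p = 1.55e-05, limma), here with pool 3 the highest. The fourth Zeb1 probe set, 1420243_at, was below background in every pool at 90.9, 56.5 and 67.5. The order of the pools thus differed between Zeb1 probe sets, by at most 1.54-fold within any called one.

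Zeb2, the second ZEB repressor, was called on 2 of its 5 probe sets, and these did not give the same picture. Probe set 1456389_at read 278, 522 and 938 in pools 1, 2 and 3, with a mean of 579 ± 333 (SD, n = 3) and a difference from background of 1.34 ± 0.32 (log2, SE; adjusted p = 0.00543, limma). Pool 3 was the highest there, 3.37-fold over pool 1. Probe set 1434298_at read 543, 303 and 242, with a difference of 0.77 ± 0.29 (adjusted p = 0.0386, limma). In that probe set pool 1 was the highest, so the called pair put opposite pools on top. Probe sets 1458941_at (301, 233 and 178) and 1422748_at (293, 232 and 156) were above the background level in pools 1 and 2 and below it in pool 3, with adjusted p of 0.467 and 0.627 (limma). Probe set 1454200_at read 215 in pool 1, 8.55 in pool 2 and 10.4 in pool 3, a single pool just over its background level.

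The Zeb2 call was lost without pool 2, where the 2 called probe sets had adjusted p of 0.0636 and 0.134, and at the 99th percentile of background (0.717 and 1, limma), and with the median probe set in place of any probe set. Probe set 1434298_at also lost its call without pool 1 (adjusted p = 0.255) and with no intensity trend in the variance (0.0518). Of the 10 called probe sets of the regulators, these 2 had a range of 2-fold or more over the pools, as did 12.6% of all called probe sets. The SD between pools was 0.85 and 0.58 on the log2 scale for them, beside a median of 0.21 over the 10 called probe sets of the regulators and 0.26 over all called probe sets.

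**Figure D2:**
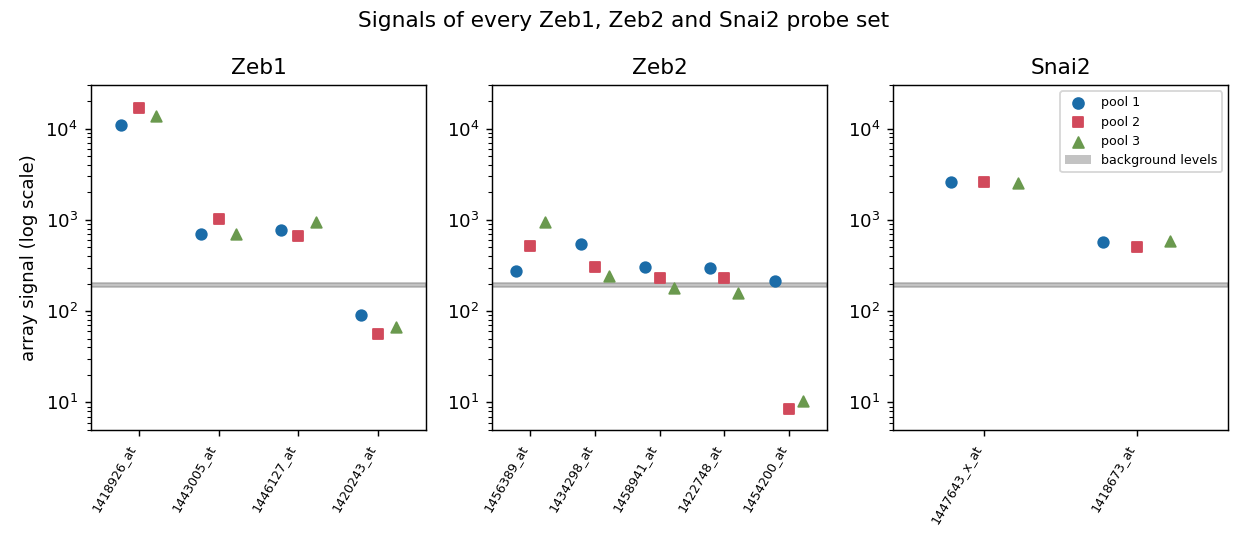
Array signal (log scale) of every Zeb1, Zeb2 and Snai2 probe set in pools 1 to 3, with the grey band showing the range of the background levels (186 to 201). The first Zeb2 probe set is highest in pool 3 at 938 and the other 4 are highest in pool 1, whereas the Snai2 probe set 1447643_x_at lies between 2534 and 2577 in all pools.

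Snai2, also known as Slug, was the Snail gene above background. Its probe set 1447643_x_at read 2575, 2577 and 2534 in pools 1, 2 and 3, a mean of 2562 ± 24.2 (SD, n = 3). The pools differed by 1.02-fold, and the difference from background was 3.62 ± 0.12 (log2, SE; adjusted p = 5.74e-08, limma). The suffix _x_at marks a probe set that can match several transcripts, so this signal may not be that of Snai2 alone. Probe set 1418673_at, without that suffix, read 565, 504 and 589 (1.43 ± 0.18, adjusted p = 0.000154, limma) and lay above background in every pool. With the level set at the 99th percentile it did not pass (adjusted p = 0.277), while 1447643_x_at did.

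Snai1 and Snai3, the other members of the Snail family, were not above background. Snai1, which is needed for gastrulation, read 134, 156 and 87.9 in pools 1, 2 and 3 on its single probe set 1448742_at (-0.60 ± 0.35, log2, SE; adjusted p = 1, limma). Every pool lay below its background level. Snai3 read 247, 214 and 149 on probe set 1456796_at (0.03 ± 0.30, adjusted p = 0.932, limma), with pools 1 and 2 just above the level and pool 3 below. Its other probe set, 1421560_at, was below background in all pools at 39.5, 14.9 and 55.0.

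The Twist genes, which act in mesoderm and limb and skull mesenchyme, were below background in every pool. Twist1 read 30.7, 69.1 and 13.2 in pools 1, 2 and 3 (-2.11 ± 0.39, log2, SE), and Twist2 read 53.1, 69.7 and 75.6 (-1.37 ± 0.34), each on a single probe set (1418733_at and 1448925_at) with an adjusted p of 1 in limma. No second probe set was at hand for either gene, so these readings depend on a single set of oligonucleotides each.

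Vim was above background on all 3 of its probe sets, and its pools differed little. Probe set 1438118_x_at read 9992, 12505 and 12172 in pools 1, 2 and 3, a mean of 11556 ± 1365 (SD, n = 3). Probe set 1450641_at read 10795, 11006 and 12513, and 1456292_a_at read 8718, 8963 and 9672. Pool 1 was the lowest on each of them, by at most 1.25-fold. The differences from background were 5.77 ± 0.14, 5.76 ± 0.12 and 5.44 ± 0.12 (log2, SE; adjusted p = 1.60e-08 for each, limma). Probe sets 1450641_at and 1456292_a_at do not carry the suffix of multiple matches and were called as well.

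Grhl2, the epithelial counterpart, was below background on all 4 of its probe sets and in every pool. Probe set 1431877_a_at read 163, 126 and 157 in pools 1, 2 and 3 (-0.36 ± 0.31, log2, SE; adjusted p = 1, limma). Probe sets 1427046_at and 1431878_at had mean signals of 39.9 ± 13.1 and 39.6 ± 15.1, and 1452643_at of 17.9 ± 12.3 (SD, n = 3 each). None of the 4 had an unadjusted p under 0.05 in limma. Of the 6 regulators with several probe sets, Zeb1 and Zeb2 had called and uncalled ones, and so did 46.3% of all genes with several probe sets.

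The relatives of Grhl2 and other regulators of epithelial identity were mostly not above background. Of 17 measured genes in this list 5 passed, beside 54.4% of all named genes. The median difference of the 17 was -0.48 (log2), beside 1.20 over all named genes. Grhl1, a grainyhead-like relative of Grhl2, had a signal of 605 ± 116 (SD, n = 3; adjusted p = 0.000170, limma), whereas Grhl3 was at 84.7 ± 18.1. The splicing regulators of epithelial cells Esrp1 (6.23 ± 2.63) and Esrp2 (141 ± 20.9) and the Zeb1 antagonists Ovol1 (212 ± 10.9) and Ovol2 (46.0 ± 32.6) did not pass. The pioneer factor Foxa1 was at 11.1 ± 6.88. The other members that passed were Klf4 (3561 ± 1391), the nephron commitment genes Pax8 (1959 ± 548) and Lhx1 (670 ± 90.9), and Elf3 (310 ± 31.3), a gene named after its values were seen. With the level at the 99th percentile 3 of the 17 passed, beside 46.1% of all named genes, and Grhl1 (adjusted p = 0.139, limma) and Elf3 did not. Elf3 also lost its call when pool 1, 2 or 3 was left out (adjusted p = 0.105, 0.111 and 0.116, limma) and with a pseudocount of 64 (0.0535). With the median probe set of each gene 3 passed as well, beside 39% of all named genes, and Pax8 and Lhx1 were not among them.

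Genes of epithelial adhesion and junctions, which include known targets of Snail and ZEB repression, were divided. Of 25 measured genes 9 passed, beside 54.4% of all named genes. The median difference of the 25 was 0.02 (log2), beside 1.20 for all named genes. Cdh1 read 65.3, 28.3 and 73.1 in pools 1, 2 and 3 and was below background in each. Rab25, a vesicle trafficking gene of epithelia, was at 46.3 ± 26.8 and Prom2 at 37.6 ± 26.7 (SD, n = 3). Tjp1, which encodes the junction scaffold ZO-1 and is also active in mesenchyme, was at 9492 ± 266, a difference from background of 5.50 (log2). Epcam, the epithelial adhesion gene whose upstream bases are shown above, read 1263, 1409 and 1662 (2.79, adjusted p = 6.63e-07, limma). The protease inhibitor gene Spint2 was at 2327 ± 916 and the polarity gene Pard6b at 1513 ± 759. At the 99th percentile of background 4 of the 25 passed, beside 46.1% of all named genes.

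Genes that carry out the mesenchymal state passed in 15 of 19 cases, with a median difference of 2.77 (log2). For all named genes the share was 54.4% and the median 1.20. Cdh2, which encodes N-cadherin, read 3443, 7001 and 8409 in pools 1, 2 and 3 (4.81, adjusted p = 6.07e-07, limma). The matrix gene Fn1 was at 3875 ± 193 (SD, n = 3), the integrin gene Itgav at 19492 ± 353, the matrix protease gene Mmp2 at 6719 ± 348 and Sparc at 8110 ± 1866. The 4 that did not pass were S100a4 (19.0 ± 13.5), the smooth muscle gene Tagln (27.4 ± 7.29), Thy1 (78.4 ± 15.2) and Itga5 (181 ± 156), the last named after its values were seen. With the median probe set of each gene 8 of the 19 passed, beside 39% of all named genes, and Fn1 and Itgav were not among them. Among intermediate filament genes other than Vim, 7 of 15 passed, beside 54.4% of all named genes, with a median of 0.10 (log2). They included the lamin genes Lmnb1 (7580 ± 1140) and Lmnb2 (3773 ± 587), the muscle filament gene Des (959 ± 175), the progenitor filament gene Nes (763 ± 117) and, near background, the epithelial Krt8 (351 ± 86.7; adjusted p = 0.0185, limma), which lost its call without pool 2 (0.0943) and without pool 3 (0.107). Krt14 (70.3 ± 23.4) and Krt7 (64.9 ± 83.8), keratins of other epithelia, did not pass. At the 99th percentile of background 4 of the 15 passed, without Krt8, and with the median probe set 3, without Lmnb2, Des or Krt8. Of all named genes 46.1% and 39% passed under these settings.

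Genes of the regulators' partners were mostly above background, Twist partners included. All 21 measured genes of corepressors and of Snail and ZEB turnover passed, beside 54.4% of all named genes. The median difference of the 21 was 4.73 (log2), beside 1.20 for all named genes. The corepressor genes Ctbp1, through which ZEB proteins act, and Ctbp2 were at 36778 ± 2639 and 2381 ± 327 (SD, n = 3). Smarca4, a chromatin remodeller that binds Zeb1, was at 16792 ± 2928, the Snail corepressor gene Ajuba at 15422 ± 1293 and the kinase gene Csnk1a1 at 41966 ± 5620. The smallest moderated statistics were those of Limd1 (4717 ± 2006), the kinase gene Lats2 (1326 ± 276) and the lysyl oxidase-like Loxl3 (853 ± 174). With the median probe set of each gene 18 of the 21 passed, beside 39% of all named genes. Smarca4 (adjusted p = 0.112, limma), Lats2 (0.892) and Btrc, the last named after its values were seen, did not pass. Of 12 genes for helix-loop-helix partners and inhibitors of Twist proteins, 9 passed, beside the same 54.4%, with a median of 4.75 (log2). The E protein genes Tcf3, Tcf4 and Tcf12 were at 12902 ± 5304, 24875 ± 3711 and 21286 ± 1011. The inhibitor genes Id1, Id2, Id3 and Id4, whose products bind E proteins without binding DNA, were at 6807 ± 950, 13462 ± 2960, 10397 ± 2462 and 4690 ± 400. The tissue-specific factors Hand1 (173 ± 30.0), Hand2 (42.9 ± 21.7) and Tcf15 (202 ± 48.2) did not pass, as Twist1 and Twist2 did not. Tcf21 (1594 ± 391) and Scx (652 ± 60.1) of the same list, both named after their values were seen, did pass. By the median probe set 7 of the 12 passed, beside 39% of all named genes, and neither Tcf21 nor Scx was among them.

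Inducers of the transition and their receptors passed in 20 of 22 cases, beside 54.4% of all named genes. The median difference of the 22 was 3.42 (log2), beside 1.20 for all named genes. The TGF-beta receptor gene Tgfbr1 read 9923, 10204 and 10688 in pools 1, 2 and 3, the signal transducer genes Smad3 and Smad4 were at 10159 ± 303 and 35035 ± 4539, and the receptor gene Fgfr1 was at 5814 ± 628 (SD, n = 3). The ligand genes Tgfb1 (124 ± 22.7) and Hgf (124 ± 14.1) were the 2 that did not pass, while the ligand gene Bmp2 was at 2085 ± 452. With the median probe set of each gene 11 of the 22 passed, beside 39% of all named genes, and Smad3 was not among them. Of 15 other transcription factors linked to the transition 11 passed, beside 54.4% of all named genes, with a median of 3.37 (log2). Among them were Foxc1 (18347 ± 1712), Sox4 (29375 ± 4112) and the Hippo pathway genes Yap1 (17164 ± 1028) and Tead1 (5556 ± 1021), whereas Tbx3 (123 ± 27.6), Tbx2 (69.0 ± 28.6), the organizer gene Gsc (22.7 ± 21.7) and Gata6 (210 ± 27.9), named after its values were seen, did not pass. Of these 15, 7 passed by the median probe set, Sox4 not among them, beside the same 39% of all named genes.

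**Figure D3:**
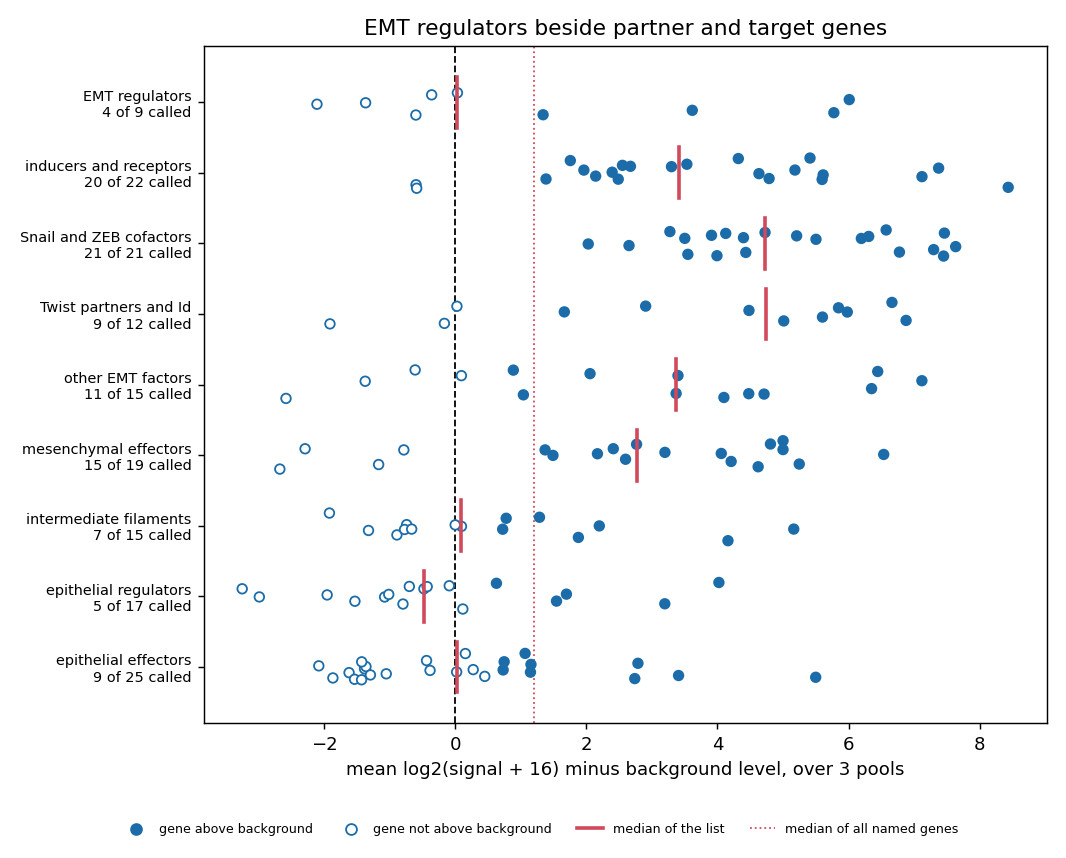
Each point is a gene, placed by its mean log2(signal + 16) minus the background level over 3 pools (x axis), with filled points for genes above background, a solid red bar for the median of each list and a dotted red line for all named genes (1.20). The 21 Snail and ZEB cofactors all lie above background, while epithelial regulators have a median of -0.48.

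Markers were read beside the label of the sorted cells. Vim and ZEB genes are also active in cells such as stroma, endothelium and blood lineages. Sorting used EGFP driven by Six2 regulatory sequence, so a Six2 signal is no independent check of the label. No other population was analysed, so a marker above background cannot show enrichment of a cell type. All 10 measured cap mesenchyme markers were above background, beside 54.4% of all named genes. They included Six2 (7905 ± 1904, SD, n = 3) and the progenitor gene Cited1 (878 ± 121). Stromal markers passed in 12 of 14 cases, beside the same 54.4%, with Foxd1, which defines cortical stroma, at 7565 ± 322. Dcn (393 ± 156) passed nearer the level (adjusted p = 0.0238, limma). Tbx18 (66.0 ± 67.4) and Ntn1 (83.9 ± 32.7) of the stromal list did not pass. Col1a1, Col3a1, Postn, Pdgfra, Pdgfrb and Tcf21 of this list, named for the overlap, were also counted in lists above with the same readings. The summed signal of the 14 genes was 38936, 36936 and 30856 in pools 1, 2 and 3. The part of stromal RNA in the signals of Zeb1, Vim and Snai2 was not tested. At the 99th percentile of background 7 of the 14 stromal markers passed, beside 46.1% of all named genes under that setting, and by the median probe set 7 passed, beside 39% of all named genes.

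Vessel and macrophage markers were mostly not above background, with median differences of -0.99 and -1.44 (log2). Of all named genes 54.4% passed, with a median of 1.20. Of 10 endothelial markers 2 passed, Egfl7 (591 ± 45.9) and Eng (424 ± 66.5), and 3 had an unadjusted p under 0.05 in limma. At the 99th percentile 0 passed in limma (1 at an unadjusted p under 0.05), and with the median probe set Egfl7 alone did. Pecam1 was at 47.6 ± 20.3, and the summed endothelial signal was 1882, 1891 and 1887 in pools 1, 2 and 3. Of 10 macrophage markers 0 passed in limma, also at an unadjusted p under 0.05 (0 of 10), with C1qa at 9.82 ± 1.42 and a summed signal of 842, 995 and 1128. Cd68, a lysosomal gene of macrophages, passed when the level was set at the 90th percentile (adjusted p = 0.0452).

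Ureteric markers, which would mark epithelium of the collecting system, passed in 5 of 12 cases, beside 54.4% of all named genes. Ret at 139 ± 9.75 was not among them, nor were Gata3 (4.66 ± 2.59), Calb1 (52.7 ± 56.4) and Tfap2b (89.4 ± 47.9). The 5 that passed were Gata2 (748 ± 98.5), Wnt7b (449 ± 115), Wnt11 (445 ± 159), Krt8 and Krt18 (345 ± 121), the last named after its values were seen. The summed signal of all 12 measured ureteric genes was 3070, 2188 and 3847 in pools 1, 2 and 3. Without pool 2 or without pool 3 the count was 3, as both keratin genes dropped out. Without pool 1 it was 4, as Krt18 dropped out (adjusted p = 0.0589, limma). At the 99th percentile of background Gata2 alone passed, beside 46.1% of all named genes. Wnt11 and Krt18 were the 2 that passed by the median probe set, beside 39% of all named genes. Each has a single probe set, so that setting cannot change its call. Early nephron genes passed in 7 of 11 cases, beside 54.4% of all named genes. Among them were Wnt4 (5631 ± 921), which triggers the epithelial conversion, Jag1 (5201 ± 782) and Cdh4 (3116 ± 377). Fgf8 (27.1 ± 29.1), Pou3f3 (135 ± 50.2), Emx2 (154 ± 71.3) and Dkk1 (250 ± 69.4) did not pass, the last named after its values were seen. By the median probe set 4 of these 11 passed, Jag1 not among them, beside 39% of all named genes. Neural crest and nerve markers passed in 2 of 6 cases, beside 54.4% of all named genes. The 2 were Elavl4 (3581 ± 221) and Erbb3 (344 ± 121). Elavl4 alone passed without pool 2, without pool 3, at the 99th percentile and with the median probe set. Erythroid markers passed in 0 of 7 cases in limma, beside the same 54.4%, and also at an unadjusted p under 0.05 (0 of 7). Without pool 1 the globin gene Hba-a2 passed (adjusted p = 0.0403).

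**Figure D4:**
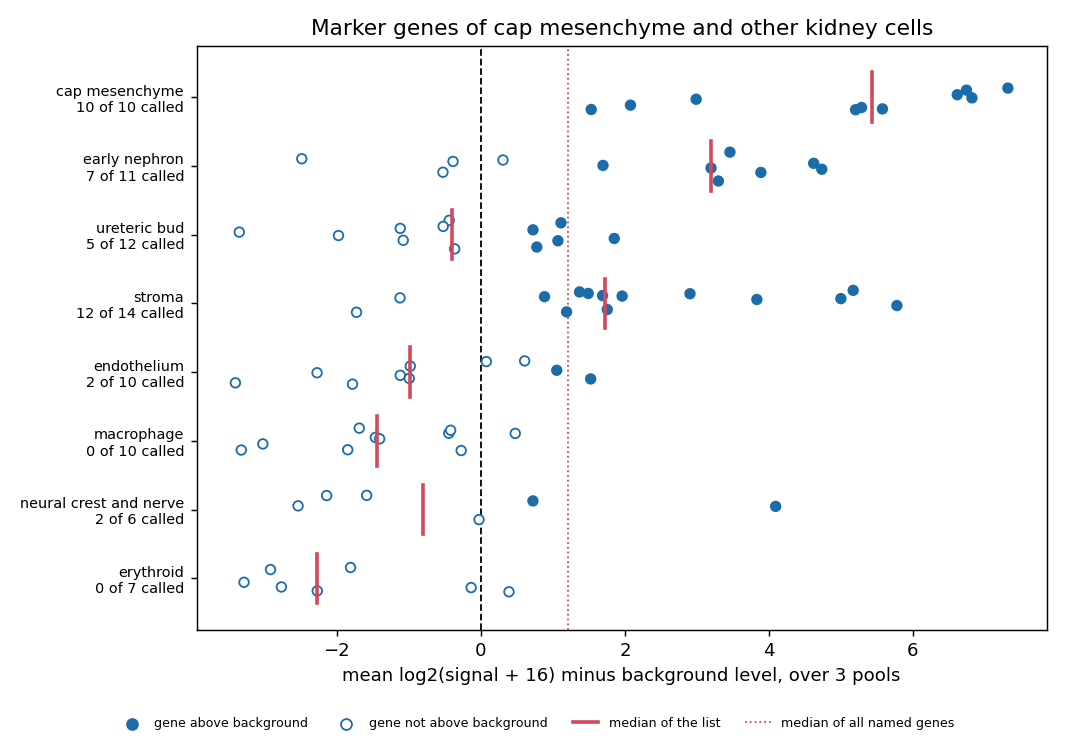
Each point is a marker gene, placed by its mean log2(signal + 16) minus the background level over 3 pools, with filled points for genes above background, a solid bar for the median of each list and a dotted line for all named genes. All 10 cap mesenchyme markers and 12 of 14 stromal markers are filled, while 0 of 10 macrophage and 0 of 7 erythroid markers are.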

How the data were processed

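Expression was measured on 3 mouse Affymetrix arrays, 1 per pool of sorted cells, with replicate numbers from the sample titles. The authors deposited a signal (intensity, linear scale) per probe set, made with GCOS per the submitters' processing notes, with version and settings not given in the sources used here. The mean signal without the lowest and highest 2% was 1500 on each array, so each signal is relative to the mean of its own array. Median signals were 222, 197 and 184. A platform annotation named 34945 probe sets by 1 gene, 932 by several (not used) and none for the rest; 64 were controls. No genome build was named for the probe sets.

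From log2(signal + 16), the background level of each array was subtracted, and the mean was tested against 0 with limma 3.58.1 in R 4.3.3 (eBayes, intensity trend); the pseudocount understates differences of weak signals. The fit was tested on simulated data. The probe set with the highest mean stands for a gene. The 9 genes and 16 gene lists were chosen with earlier results of these data known, so counts are descriptions. Of 228 list genes 215 were measured. Named were the 9 genes, 25 genes fixed by name, and in each list up to 4 genes of largest and 3 of smallest moderated statistic; exceptions are marked. Alternatives were other percentiles (90th, 99th), pseudocounts (1, 64), quantile normalization, no _s_at or _x_at probe sets, no intensity trend, leaving out each pool, and the median probe set of a gene (the lower of a middle pair). Promoters came from RefSeq (GRCm38.p6). Python 3.11.15, pandas 2.3.3 and matplotlib 3.10.9 made tables and plots.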

Additional observations from a re-analysis of the deposited data

How the results depend on the processing

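Under the 11 alternatives, 185 of 208 counts stayed within 1.5-fold and 1170 of 1218 calls of single genes or probe sets kept their side; 45 were lost and 3 gained. The 9 regulators gave 3 or 4 called genes throughout, Zeb2 being the one lost. Their called probe sets numbered 7 to 10, and 8 to 10 with a pool left out. All named genes called ranged from 7090 (39%, median probe set) to 10303 (56.6%, 90th percentile).

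At the 99th percentile, which sets a higher level, 46.1% of all named genes passed, and list counts fell to 4 for intermediate filaments, 3 for epithelial regulators, 4 for epithelial effectors, 1 for ureteric bud, 7 for stroma, 0 for endothelium (limma; 1 at an unadjusted p under 0.05) and 1 for neural crest and nerve. At the 90th percentile 1 macrophage marker passed. With the median probe set, which drops the any-probe-set rule, 11 inducers, 7 other factors, 8 mesenchymal effectors, 3 intermediate filaments, 3 epithelial regulators, 2 ureteric, 4 early nephron, 7 stromal, 1 endothelial and 1 neural gene passed. With a pool left out, counts ran from 3 to 4 for ureteric bud, 1 to 2 for neural crest and nerve, and 0 to 1 for erythroid genes.

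No paired analysis was possible because all samples belong to a single group. The number of arrays and the signal over background limit what can be said of genes near the level, such as Zeb2 and Snai3.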
